A study of Homo sapiens with 12 samples.

Results

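The very long genes examined here are 58 human genes known to span about 300 kb or more of genomic DNA and chosen by name for that span. All 58 were found among the 53712 named genes of the count table, and 54 of them had 10 or more counts in at least 4 libraries and were tested among 17484 genes. The study asked what LINE1 (L1), an abundant family of retrotransposons, does in naive human embryonic stem cells. H9, an established line of human embryonic stem cells, was kept in RSeT medium and transfected with 25 nM of oligonucleotides. ASO-Ctr is an antisense control with no specific target, ASO-L1 is antisense to L1 RNA, and SO-L1 is the sense counterpart. From transfection until harvest at 48 h every culture, controls included, received 10 nM DZNep, an inhibitor of S-adenosylhomocysteine hydrolase that lowers histone methylation, and 5 nM TSA, a histone deacetylase inhibitor. Trans-ISRIB, emricasan and the ROCK inhibitor Y-27632 were present in all groups until 24 h, and cells were collected without sorting. Each group has 4 poly(A) RNA libraries numbered 1 to 4, all from 1 cell line. No label says that they are separate cultures, so p-values measure the spread between these libraries, which may be technical.

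A gene is transcribed from end to end by a single RNA polymerase, so a very long gene needs hours for 1 complete transcript, most of which is intron. Such genes are known for their dependence on topoisomerases, on elongation factors and on the suppression of premature polyadenylation, and several of them coincide with common fragile sites, where replication is easily left incomplete. Many are neuronal genes, but those measured here also serve in membrane traffic, cell polarity and RNA metabolism in stem cells.

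Library totals ranged from 20367989 to 32180891 counts, and levels are given as CPM, a gene's share of the effective library size after scaling. The summed level of 8 core pluripotency markers lay between 6200 and 7530 CPM in every library, as the label of embryonic stem cells implies. Whether the cells were in a naive state was not examined with these markers. Libraries numbered 1 and 2 stood apart from those numbered 3 and 4 in all groups, and 4909 of the 17484 tested genes (28.1%) were higher and 4643 (26.6%) lower in numbers 3 and 4. Because L1 itself was not analysed here, the effect of the oligos on their target is not given. In bulk RNA, fewer cells of a type and less RNA per cell cannot be told apart.

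The annotated span of the 58 genes, taken from GENCODE 29, ran from 317.4 kb for EXT1 to 2241.8 kb for DMD, with a median of 736.7 kb. A long span did not always come with a long transcript. The longest annotated transcript had 2482 nt for WWOX, which spans 1113.3 kb, and 1522 nt for IMMP2L, which spans 899.5 kb. RefSeq promoters, windows of 300 bases from 250 before to 50 after a start, were matched by symbol for 49 of the 58 genes, with 110 windows in all; ASAP1, EXOC6B, EXT1, JAZF1, LRP1B, PARD3, RERE, TRAPPC9 and VPS13B had none listed. Members with 1 listed start numbered 26, and RABGAP1L had 8 starts. Below are the 2 genes with 1 listed start among the 8 members with the smallest p in ASO-L1 against ASO-Ctr. Both genes fell, and their start regions differ in make-up, which had no part in the choice. Capitals mark the GC box, GGGCGG on either strand.
SND1, chr7:127651944-127652243, plus strand, GRCh38.p14: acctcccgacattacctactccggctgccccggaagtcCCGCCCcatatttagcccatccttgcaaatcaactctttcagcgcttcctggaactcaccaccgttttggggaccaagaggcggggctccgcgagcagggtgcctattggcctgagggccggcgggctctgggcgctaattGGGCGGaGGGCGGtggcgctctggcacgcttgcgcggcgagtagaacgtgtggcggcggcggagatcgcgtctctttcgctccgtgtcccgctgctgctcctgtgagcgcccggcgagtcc
EXOC4, chr7:133252828-133253127, plus strand, GRCh38.p14: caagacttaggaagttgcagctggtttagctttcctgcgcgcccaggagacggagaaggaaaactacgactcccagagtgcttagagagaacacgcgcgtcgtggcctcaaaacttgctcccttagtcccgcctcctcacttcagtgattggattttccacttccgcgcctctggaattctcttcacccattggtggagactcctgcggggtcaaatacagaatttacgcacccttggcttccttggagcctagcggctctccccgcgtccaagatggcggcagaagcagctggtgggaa

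The SND1 window held 3 GC boxes, 31 CpG dinucleotides and 66.0% G or C, and the EXOC4 window held no GC box, 17 CpG dinucleotides and 55.7% G or C. Neither window held the other 4 motifs searched on both strands, which were AP-1 (TGACTCA), CRE (TGACGTCA), the TATA box (TATAAA) and the E-box (CACGTG). No motif of the 5 contains another. Across the 110 windows of the very long genes, 40.0% held a GC box, against 64.0% of the 16381 windows of tested genes and 45.0% of all 35116 windows. The AP-1 motif was in 8.18% of the members' windows, in 3.6% of those of tested genes and in 4.95% of all. For the other motifs these shares were 0.909%, 2.58% and 1.85% for CRE, 10.9%, 6.57% and 11.5% for the TATA box, and 9.09%, 9.0% and 7.26% for the E-box. Median GC content was 54.5% in the members' windows, 64.3% in those of tested genes and 58.7% in all. Windows of 1 gene can overlap, so these shares are descriptions.

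Most very long genes had a lower level with ASO-L1 than with the control oligo. In the edgeR quasi-likelihood test, with adjustment over all 17484 genes and a threshold of 0.05, 37 of the 54 tested members fell and 0 rose, while over all tested genes 10.5% fell and 11.5% rose. At an unadjusted p under 0.05 edgeR gave 43 lower and 1 higher member, and the adjusted counts were 39 and 0 with DESeq2 and 37 and 0 with limma-voom. The estimate was below 0 for 51 of 54 members, and their median log2 fold change was -0.39, against -0.0006 over all tested genes. Changes were of moderate size and ranged from -0.71 for PTPRM to 0.43 for PRKCE, which did not pass the test. With the library number as a block, 45 members fell and 2 rose, and all tested genes gave 22.3% and 22.1%. The 8 members added to the lower ones were MAGI2, DIAPH2, GPC6, AUTS2, KDM4C, JAZF1, MSI2 and FNDC3B, and the 2 higher ones were ASAP1 and ATXN1.

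Counts in the 58 genes made up 0.227% to 0.245% of all counts in the ASO-Ctr libraries, 0.216% to 0.229% in SO-L1 and 0.179% to 0.190% in ASO-L1. The highest ASO-L1 library was below the lowest library of both other groups. For the 54 tested members, the median difference in log2 CPM from the ASO-Ctr mean was between -0.04 and 0.04 in single ASO-Ctr libraries, between -0.11 and -0.04 in SO-L1 and between -0.40 and -0.34 in ASO-L1. In this median the SO-L1 libraries all lay below the control range, the nearest by very little (-0.0399 against -0.0389). The ASO-L1 libraries lay well below it. Between ASO-L1 and ASO-Ctr libraries of the same number, 52, 50, 50 and 48 of the 54 members were lower, with medians of -0.43, -0.43, -0.35 and -0.33.

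**Figure D1:**
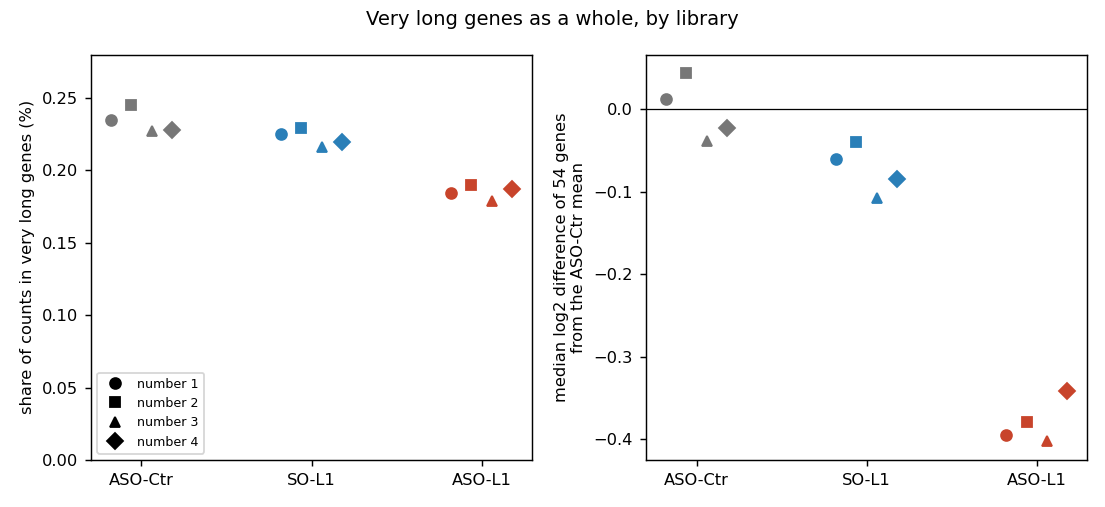
Left, share of all counts (%) that fell in the 58 very long genes in each of the 12 libraries, grouped by oligo. Right, median over the 54 tested genes of the difference in log2 CPM from the ASO-Ctr mean. Symbols stand for library numbers. The 4 ASO-L1 libraries lie between 0.179% and 0.190% and between -0.40 and -0.34, below all other libraries in both measures.

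Among 7 tested receptors and signalling enzymes, 5 fell. They include 3 receptor-type tyrosine phosphatases that act at the cell surface: PTPRG (-0.48 ± 0.07 SE, adjusted p = 0.000193), PTPRK (-0.47 ± 0.07, adjusted p = 0.000253) and PTPRM (-0.71 ± 0.14, adjusted p = 0.00356). PTPRG had a mean of 86.3 CPM with the control oligo, 77.9 with SO-L1 and 61.9 with ASO-L1, and PTPRM had 8.00, 6.45 and 4.90 CPM. All 3 were lower in every same-number pair. PRKG1, a cGMP-dependent protein kinase, had 18.2, 18.1, 21.2 and 19.6 CPM in the ASO-Ctr libraries, 19.4, 19.2, 17.6 and 19.5 in SO-L1 and 12.9, 11.6, 13.7 and 15.1 in ASO-L1. The ASO-L1 values were all below those of the other groups, which overlapped each other. Its log2 fold change was -0.53 ± 0.08 (adjusted p = 0.000622) against ASO-Ctr and -0.51 ± 0.08 (adjusted p = 0.00107) against SO-L1. CAMK1D, a calcium/calmodulin-dependent kinase, also fell (-0.34 ± 0.09, adjusted p = 0.0199). PDE4D, which degrades cAMP, was at -0.18 ± 0.28 and did not pass the test. Its level moved more with the library number, by 0.75 from numbers 1 and 2 to numbers 3 and 4. PRKCE, a protein kinase C, was at 0.43 ± 0.28 on a mean of 0.671 CPM in ASO-Ctr and did not pass either.

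Of 14 tested genes of adhesion, polarity and the cytoskeleton, 10 fell. PARD3, a scaffold of the Par complex that sets epithelial polarity, had 84.8, 87.6, 82.4 and 85.6 CPM in ASO-Ctr, 83.5, 81.6, 81.7 and 83.7 in SO-L1 and 61.4, 63.7, 65.5 and 65.8 in ASO-L1. No ASO-L1 library reached the others, and the SO-L1 values fell within or just beside the control range. The change against ASO-Ctr was -0.41 ± 0.04 (adjusted p = 1.13e-05). ASTN2, a membrane protein first known from neuron migration, had 13.8, 14, 15.7 and 14.1 CPM in ASO-Ctr, 13.4, 13.6, 12.5 and 12.9 in SO-L1 and 9.06, 8.13, 9.28 and 9.08 in ASO-L1. Here all 3 groups were apart, with SO-L1 just under ASO-Ctr and ASO-L1 far under both. It fell by 0.70 on the log2 scale against ASO-Ctr (SE 0.07, adjusted p = 2.0e-05). LPP, a LIM protein of focal adhesions (-0.57 ± 0.10, adjusted p = 0.00134), and gephyrin, GPHN, a scaffold of inhibitory synapses (-0.35 ± 0.06, adjusted p = 0.00159), also fell. The glypican GPC6 was at -0.44 ± 0.22 and passed only with the block (adjusted p = 0.188; with the block, 4.47e-10).

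DMD encodes dystrophin, which links actin to the membrane, and has the longest span in the list. Its level was 16.6, 17.2, 13.8 and 13.1 CPM in ASO-Ctr, 16.1, 16.4, 13.2 and 13.3 in SO-L1 and 11.7, 10.9, 9.84 and 11.3 in ASO-L1. The ASO-L1 libraries were all lower than any other, and in the other groups numbers 1 and 2 were above numbers 3 and 4. DMD fell by 0.47 on the log2 scale (SE 0.11, adjusted p = 0.00704). ASAP1, which stimulates GTP hydrolysis by Arf proteins and acts in focal adhesions, was the exception in this group. It had 30.6, 31.5, 30.1 and 31.4 CPM in ASO-Ctr, 29.6, 30.6, 28.99 and 28.6 in SO-L1 and 35.7, 35.5, 32.9 and 31.9 in ASO-L1. Every ASO-L1 value was above every other, by little in number 4. Its change was 0.14 ± 0.05 against ASO-Ctr (adjusted p = 0.0713). The adjusted p was 0.0139 with the block and 0.0478 without ASO-L1 library 4. Against SO-L1 it rose (0.21 ± 0.05, adjusted p = 0.0118), a call lost with no filter on low counts (adjusted p = 0.054).

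All 8 genes of membrane traffic fell, from -0.66 to -0.19. EXOC4, a subunit of the exocyst that tethers secretory vesicles to the plasma membrane, had 94.9, 104.2, 85.4 and 88.2 CPM in ASO-Ctr, 84.0, 85.0, 72.0 and 74.2 in SO-L1 and 59.8, 63.9, 57.1 and 63.7 in ASO-L1. The 3 groups did not overlap, and SO-L1 lay between the other groups. The change was -0.61 ± 0.07 in ASO-L1 against ASO-Ctr (adjusted p = 7.98e-05). VPS13B, a lipid transfer protein of the Golgi, had 18.3, 18.7, 20.8 and 19.5 CPM in ASO-Ctr, 18.1, 18.6, 17.1 and 19.9 in SO-L1 and 11.7, 12.9, 13.8 and 13.1 in ASO-L1. SO-L1 and ASO-Ctr overlapped and ASO-L1 was apart from both. It fell by 0.58 on the log2 scale (SE 0.07, adjusted p = 9.12e-05). RABGAP1L, a GTPase activating protein for Rab proteins, had 61.9, 67.6, 68.5 and 65.9 CPM in ASO-Ctr, 62.3, 65.8, 66.6 and 62.6 in SO-L1 and 50, 51.6, 47.9 and 49.3 in ASO-L1. Its ASO-L1 values were likewise all below the rest (-0.41 ± 0.05, adjusted p = 4.46e-05).

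EXOC6B, a further exocyst subunit, had 57.8, 62.3, 58.7 and 62.1 CPM in ASO-Ctr, 57.9, 58.6, 65.9 and 62.7 in SO-L1 and 46.9, 50.7, 47.0 and 49.0 in ASO-L1. The ASO-L1 libraries were apart and the others overlapped. It changed by -0.31 ± 0.05 (adjusted p = 0.000863). The remaining members of the group were NBAS, which serves retrograde transport to the endoplasmic reticulum (-0.66 ± 0.12), TRAPPC9 of the TRAPP tethering complex (-0.46 ± 0.08), the Rab regulator TBC1D5 (-0.34 ± 0.06) and the SNARE VTI1A (-0.19 ± 0.05). Their adjusted p-values lay between 0.00135 and 0.0143.

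Of 11 tested transcription and chromatin factors 5 fell, and the other 6 did not pass the test. Still, 10 of the 11 estimates were below 0, and their median was -0.39, as over all tested members. AUTS2, KDM4C and JAZF1 passed with the block. FOXP1, a forkhead transcription factor, had the smallest p of all members. Its level was 37.9, 38.6, 38.01 and 35.9 CPM in ASO-Ctr, 32.9, 35.3, 36.0 and 34.8 in SO-L1 and 24.8, 25.8, 25.3 and 26.0 in ASO-L1. ASO-L1 was below all other libraries, and 1 SO-L1 library reached into the control range. The change was -0.56 ± 0.05 (adjusted p = 4.68e-06), or 32.2% less than ASO-Ctr. TCF12, a basic helix-loop-helix factor, had 86.0, 84.4, 87.4 and 86.1 CPM in ASO-Ctr, 83.2, 91.0, 87.7 and 84.5 in SO-L1 and 73.6, 74.5, 71.7 and 73.7 in ASO-L1. Its fall was small but without overlap (-0.23 ± 0.04, adjusted p = 0.000998). BCAS3 (-0.64 ± 0.13), the histone methyltransferase SMYD3 (-0.51 ± 0.08) and the SAGA subunit SUPT3H (-0.40 ± 0.09) fell too, with adjusted p-values of 0.00346, 0.000479 and 0.00591.

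AUTS2, a nuclear regulator of neuronal genes, had 192.9, 193.3, 167.2 and 176.3 CPM in ASO-Ctr, 185.1, 191.9, 166.3 and 170.9 in SO-L1 and 171.2, 180.6, 149.0 and 148.1 in ASO-L1. The groups overlapped, while ASO-L1 was the lower in all 4 same-number pairs. The change was -0.17 ± 0.07 (adjusted p = 0.131; with the block, 2.2e-05). The histone demethylase KDM4C (-0.39 ± 0.17) and the zinc finger protein JAZF1 (-0.41 ± 0.18) also passed only with the block. Their adjusted p-values went from 0.125 and 0.141 to 2.59e-10 and 2.11e-08 with the block, and their levels differed by -0.48 and 0.51 between the numbers. RERE, a nuclear receptor corepressor, was at -0.09 ± 0.05, ZBTB20 at -0.33 ± 0.28 on 0.741 CPM, and ATXN1 at 0.26 ± 0.13, and none of the 3 passed the test.

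Among 4 genes of RNA binding and modification, 3 fell. SND1, a nuclease and RNA-binding protein whose promoter is printed above, had 352.3, 382.6, 329.9 and 339.7 CPM in ASO-Ctr, 333.7, 348.1, 335.8 and 330.4 in SO-L1 and 267.3, 276.6, 259.3 and 268.7 in ASO-L1. The lowest library outside ASO-L1 was well above the highest within it. The change was -0.39 ± 0.05 (adjusted p = 5.98e-05). FTO, which demethylates adenosine in RNA, had 29.8, 27.6, 29.9 and 32.1 CPM in ASO-Ctr, 27.6, 28.6, 31.5 and 30.3 in SO-L1 and 21.1, 20.3, 23.3 and 22.8 in ASO-L1. It was lower in every ASO-L1 library than in any other (-0.45 ± 0.07, adjusted p = 0.000385). CDKAL1, a tRNA-modifying enzyme, fell (-0.30 ± 0.07, adjusted p = 0.00711), and the translational regulator MSI2 did not pass the test (-0.40 ± 0.19, adjusted p = 0.15).

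Of 4 genes tied to genome maintenance or fragile sites, 2 fell. FHIT, a hydrolase of dinucleoside polyphosphates at a common fragile site, had 2.17, 2.66, 2.11 and 2.31 CPM in ASO-Ctr, 1.68, 2.01, 1.52 and 1.19 in SO-L1 and 1.89, 1.48, 1.46 and 1.40 in ASO-L1. Both L1 oligo groups were below every ASO-Ctr library and overlapped each other. FHIT fell in ASO-L1 (-0.58 ± 0.17, adjusted p = 0.0278), a call lost without ASO-Ctr 2 (adjusted p = 0.0849), ASO-Ctr 4 (0.0547), ASO-L1 2 (0.0676), ASO-L1 3 (0.0701) or ASO-L1 4 (0.0706), and with no filter on low counts (0.0614). In SO-L1 against ASO-Ctr its change was -0.54 ± 0.17, with an adjusted p of 0.933.

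WWOX, an oxidoreductase at another fragile site, had 3.59, 3.59, 4.77 and 4.96 CPM in ASO-Ctr, 4.10, 4.01, 5.08 and 5.55 in SO-L1 and 2.91, 3.29, 3.72 and 4.31 in ASO-L1. The groups overlapped and numbers 3 and 4 were the higher in each. Its change of -0.25 ± 0.16 did not pass the test (adjusted p = 0.319, with the block 0.0608). Against SO-L1 it was at -0.40 ± 0.16 and passed only with the block (adjusted p = 0.104, with the block 0.00247). MACROD2, which removes ADP-ribose from proteins, had 1.53, 1.30, 1.15 and 1.07 CPM in ASO-Ctr, 1.63, 1.18, 1.35 and 0.805 in SO-L1 and 0.827, 1.25, 1.25 and 1.11 in ASO-L1. These ranges overlapped throughout, and a difference was not detectable at this depth (-0.17 ± 0.22, adjusted p = 0.647).

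In the last group, of metabolic, processing and other genes, 4 of 6 fell. EXT1, a polymerase of heparan sulfate chains, had 67.0, 67.0, 62.6 and 65.5 CPM in ASO-Ctr, 64.8, 68.6, 65.3 and 68.5 in SO-L1 and 50.9, 50.1, 49.0 and 51.9 in ASO-L1. The ASO-L1 libraries were apart and the other groups overlapped. EXT1 has the shortest span of the list and fell by 0.38 on the log2 scale (SE 0.04, adjusted p = 3.72e-05). IMMP2L, a protease subunit of the inner mitochondrial membrane, had 3.59, 3.55, 2.82 and 2.56 CPM in ASO-Ctr, 2.17, 2.70, 2.13 and 2.46 in SO-L1 and 1.65, 2.32, 2.15 and 1.56 in ASO-L1. ASO-L1 was below ASO-Ctr without overlap, and SO-L1 overlapped both. Its change was -0.69 ± 0.17 (adjusted p = 0.00921). The zinc transporter SLC39A11 (-0.46 ± 0.08) and FAF1, a ubiquitin-binding adaptor (-0.36 ± 0.05), fell, while AGBL4 (-0.28 ± 0.14) and FNDC3B (-0.14 ± 0.06) did not pass.

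**Figure D2:**
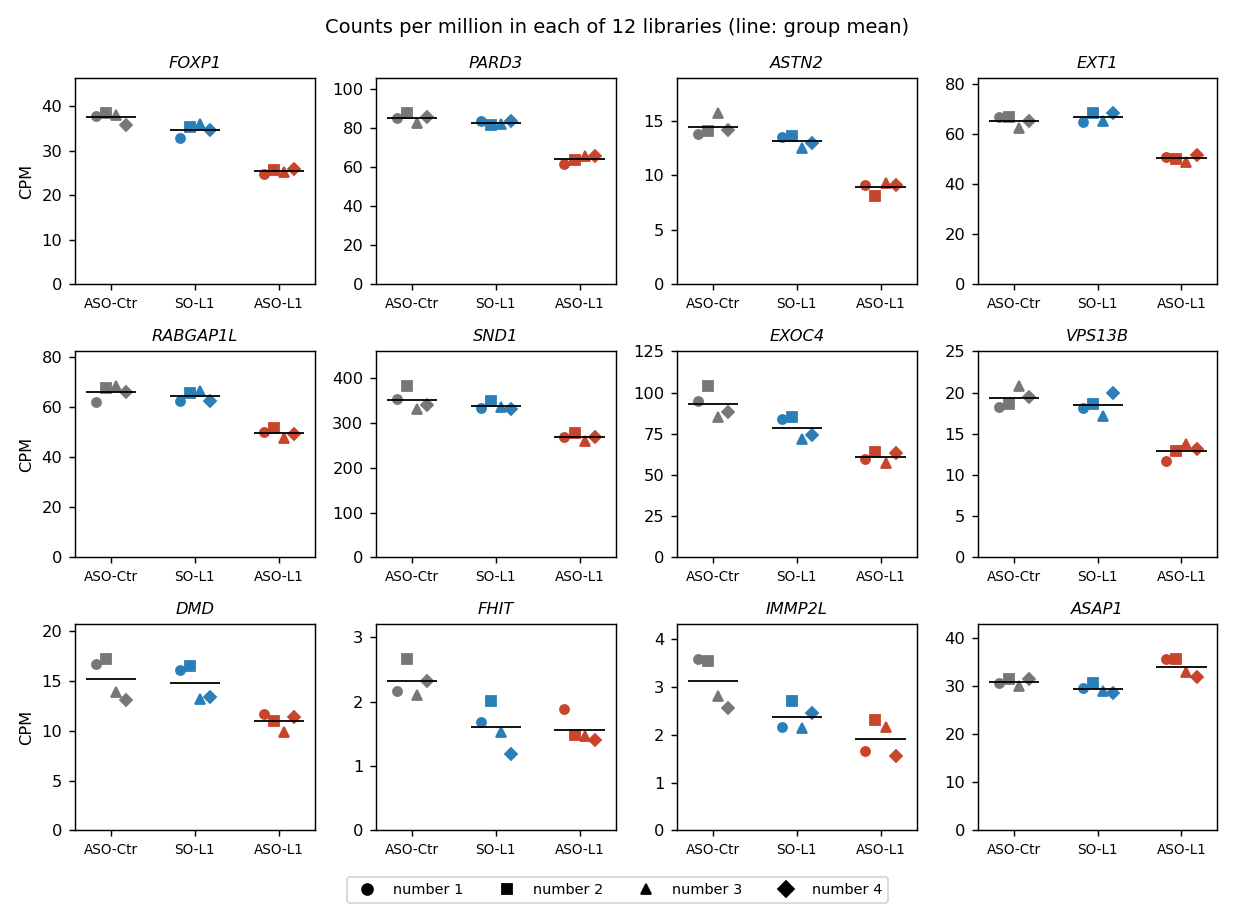
Level in CPM (linear axes from 0) of 12 very long genes in each library, by oligo group, with symbols for the library numbers and a line at the mean of 4. In 11 of the panels the ASO-L1 libraries lie below the ASO-Ctr libraries without overlap, and in the ASAP1 panel they lie above them.

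Related genes in the list are set side by side here, and the difference within a pair was not tested. PARD3 and PARD3B, both polarity scaffolds, fell by 0.41 and 0.59 on the log2 scale. PARD3B rests on 2.31 CPM in ASO-Ctr, and its adjusted p was 0.0321. The junction scaffold MAGI1 fell (-0.28 ± 0.06, adjusted p = 0.00393), while MAGI2 had the larger estimate and missed the threshold (-0.42 ± 0.15, adjusted p = 0.0589; with the block, 1.68e-07). Of the formins, which nucleate actin filaments, DIAPH3 fell (-0.18 ± 0.06, adjusted p = 0.0357) and DIAPH2 was at -0.24 ± 0.09 (adjusted p = 0.0683; with the block, 1.85e-07). The alpha-catenin CTNNA2 (-0.49 ± 0.16) and the delta-catenin CTNND2 (-0.35 ± 0.11) fell with adjusted p-values of 0.0464 and 0.0336, but the call of CTNNA2 held in only 8 of 21 settings. It was lost, among others, with upper quartile scaling, with no filter on low counts and without any 1 of the SO-L1 libraries, and its highest adjusted p was 0.129. The 21 settings are the scalings, tests, filters and models tried, the fit of only the groups compared, and leaving out each of the 12 libraries. In all 21, 29 of the 37 lower calls held. DIAPH3 held in 14, FHIT and PARD3B in 15, CTNND2 in 16, CAMK1D in 17 and VTI1A in 20.

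**Figure D3:**
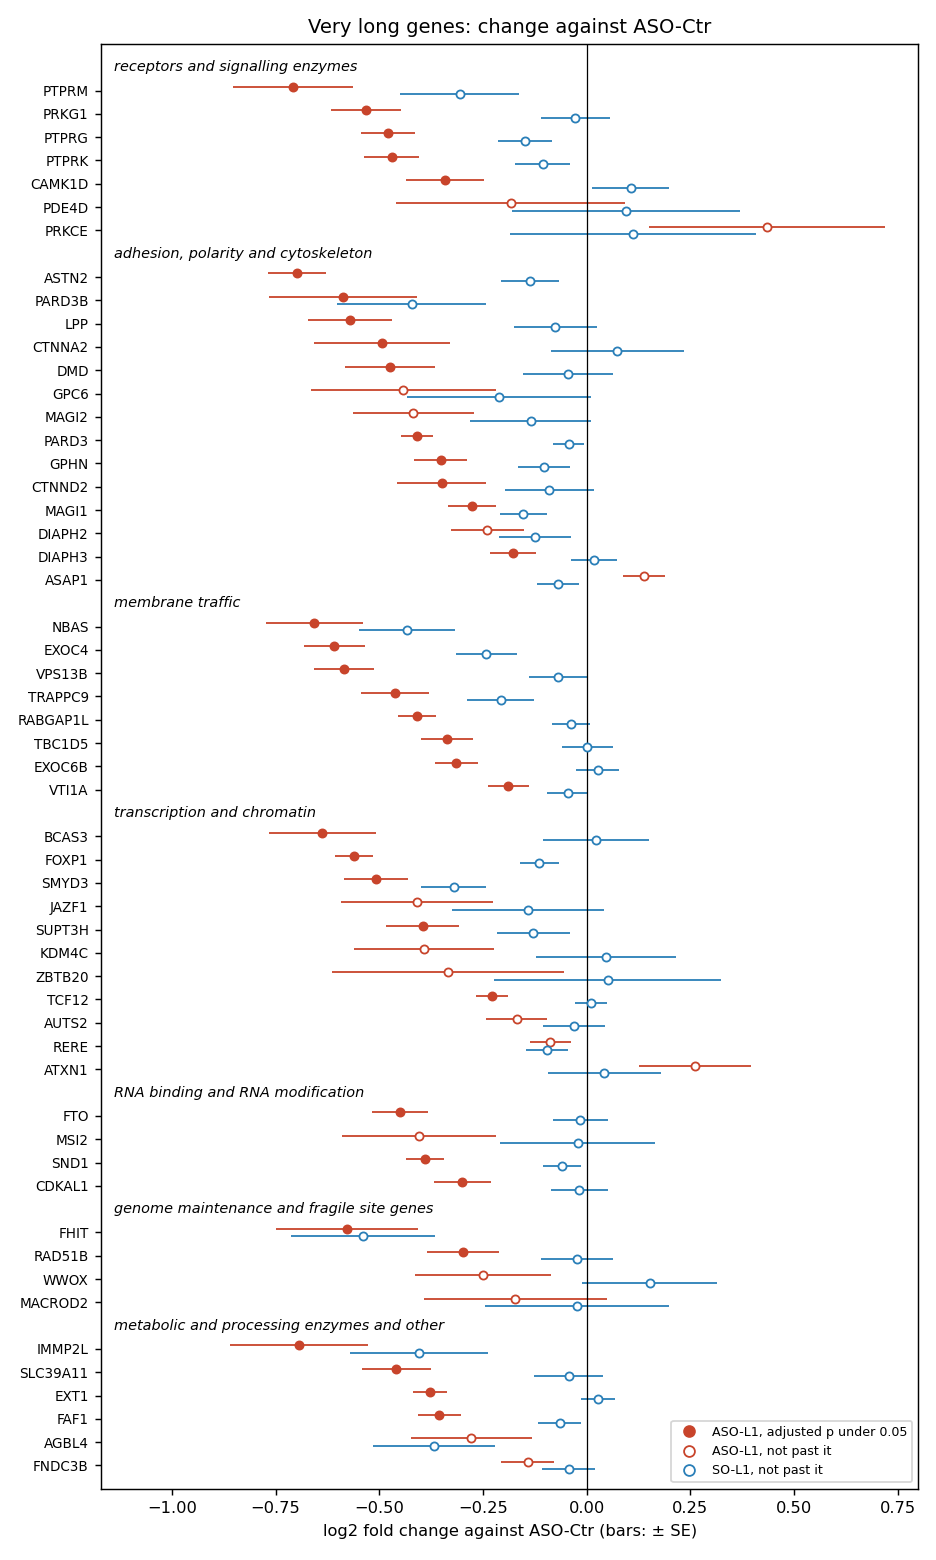
Log2 fold change (points) with its SE (bars) against ASO-Ctr for the 54 tested very long genes, by role, for ASO-L1 and for SO-L1. Filled points passed the edgeR test at an adjusted p under 0.05. Of the ASO-L1 points 51 lie left of 0 and 37 are filled, and no SO-L1 point is filled.

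ASO-L1 against SO-L1 uses a second control oligo but the same ASO-L1 libraries, so both comparisons share them and neither is independent of the other. Against SO-L1, 27 of the 54 members fell and 1, ASAP1, rose, with 9.52% lower and 10.5% higher over all tested genes. The median was -0.29 for the members and -0.0028 for all. With the block 43 fell and 2 rose, and all genes gave 21.5% and 21.4%. Side by side, the change against ASO-Ctr and against SO-L1 was -0.56 and -0.45 for FOXP1, -0.41 and -0.37 for PARD3, and -0.38 and -0.40 for EXT1. For NBAS it was -0.66 and -0.22, the latter with an adjusted p of 0.215 (0.000115 with the block), and for FHIT -0.58 and -0.04. In the authors' deposited table of this comparison, 57 of the 58 genes are listed, and 35 are lower and 1 higher at an adjusted p under 0.05, against 12.2% and 12.9% of its 21414 genes. The median of the 57 in the authors' deposited table is -0.29.

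SO-L1 against ASO-Ctr shares the control libraries with the first comparison. In edgeR 0 members were called in either direction, with 0.0286% lower and 0% higher over all tested genes, and DESeq2 and limma-voom gave 0 as well. At an unadjusted p under 0.05 edgeR gave 11 lower and 0 higher members. The estimate was below 0 for 40 of 54, with a median of -0.05 for the members and 0.0033 for all tested genes. The lowest estimates were those of FHIT (-0.54 ± 0.17), NBAS (-0.43 ± 0.12), PARD3B (-0.42 ± 0.18) and IMMP2L (-0.40 ± 0.17). With the number as a block 7 members fell, against 0.972% of all tested genes: PTPRG, MAGI1, DIAPH2, GPC6, EXOC4, NBAS and SMYD3. In the fit without the block their changes in SO-L1 ranged from -0.43 for NBAS to -0.12 for DIAPH2, and no member rose with the block (0.423% of all tested genes). SO-L1 libraries did not overlap ASO-Ctr libraries in CPM for 7 members, all lower: ASTN2, EXOC4, NBAS, TRAPPC9, RERE, SMYD3 and FHIT. Over all tested genes this was so for 1.26% in the lower and 1.05% in the higher direction. In the authors' deposited batch-corrected log2 values 20 of 57 members were lower without overlap and 1 higher, against 5.23% and 4.42% of genes.

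Within numbers 1 and 2 alone, 42 members fell and 2 rose in ASO-L1 against ASO-Ctr (17.5% and 18.5% of all tested genes), with a median of -0.43. Within numbers 3 and 4 alone, 42 fell and 1 rose (17.3% and 18.3%), with a median of -0.35. Against SO-L1, 35 fell and 1 rose within numbers 1 and 2 (16.8% and 18.3%), and 37 fell and 2 rose within numbers 3 and 4 (16.2% and 18%). In SO-L1 against ASO-Ctr, 2 fell within numbers 1 and 2 and 3 within numbers 3 and 4, with 0 higher in both. All tested genes gave 0.51% lower and 0.273% higher in the former, and 0.821% and 0.387% in the latter. The interaction of the change with these sets called 0 of 54 members in edgeR, with 3 at an unadjusted p under 0.05, and 0.326% and 0.446% of all tested genes in the higher and lower direction. It also called 0 members in ASO-L1 against SO-L1 (4 at an unadjusted p under 0.05; all tested genes 0.538% and 1.2%) and in SO-L1 against ASO-Ctr (1 at an unadjusted p under 0.05; all tested genes 0%). The interaction was not run with another tool. The set itself moved many of the members: 12 were higher and 20 lower in numbers 3 and 4, from -0.63 for GPC6 to 0.75 for PDE4D. In CPM, 37 members were lower and 1 higher in all ASO-L1 libraries than in every ASO-Ctr library (12% and 13.1% of all tested genes), and against SO-L1 these were 28 and 1 (11.4% and 12.5%). In the authors' deposited batch-corrected log2 values 47 of 57 were lower and 2 higher against ASO-Ctr (19.8% and 20.5% of 21097 genes), and 43 and 3 against SO-L1 (18.9% and 20.6%).

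How far the response followed gene span was described over the 13844 tested protein-coding genes with a GENCODE 29 span, of which 13790 are not members. Among the latter, 4.14% of genes under 10 kb were lower and 16.2% higher in ASO-L1 against ASO-Ctr. From 10 to 30 kb the shares were 5.6% and 16.6%. From 30 to 100 kb the shares were 11% and 11.8%, from 100 to 300 kb 24.5% and 5.43%, and from 300 to 1000 kb 43.5% and 0.911%. Up to 1000 kb the share of lower genes thus grew with each step in span, and above 30 kb the share of higher genes shrank. At 1000 kb or more, 11 of 35 genes (31.4%) were lower and 0 higher, on a median level of 1.96 CPM against 7.47 CPM from 300 to 1000 kb and 30.4 CPM from 30 to 100 kb. Median log2 fold changes in the 6 bins, from short to long, were 0.06, 0.05, -0.01, -0.12, -0.34 and -0.43. Spearman's rho between span and log2 fold change was -0.32 over these 13790 genes, which share libraries and are not replicates. Between the length of the longest transcript and the change it was -0.16.

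The gradient was present in both classes of transcript length, in a split chosen after seeing the data. With a longest transcript under 5000 nt, 4.1% of genes under 10 kb and 82 of 180 genes of 300 to 1000 kb (45.6%) were lower, members included. With one of 5000 nt or more, the shares were 4.96% of 121 genes and 188 of 410 genes (45.9%). Among genes with a mean of at least 10 CPM, also chosen after seeing the data, 64.1% of 276 genes of 300 to 1000 kb were lower, and 5.53% of 1536 genes under 10 kb. At 1000 kb or more, 8 of 13 genes at this level (61.5%) were lower, members included. For SO-L1 against ASO-Ctr, where 5 genes in all were called, the medians outside the members moved in the same order but less, from 0.01 under 10 kb to -0.05 from 300 to 1000 kb and -0.10 above. Because CPM are shares of a total, lower shares in long genes and higher shares in short ones cannot be read as separate changes.

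**Figure D4:**
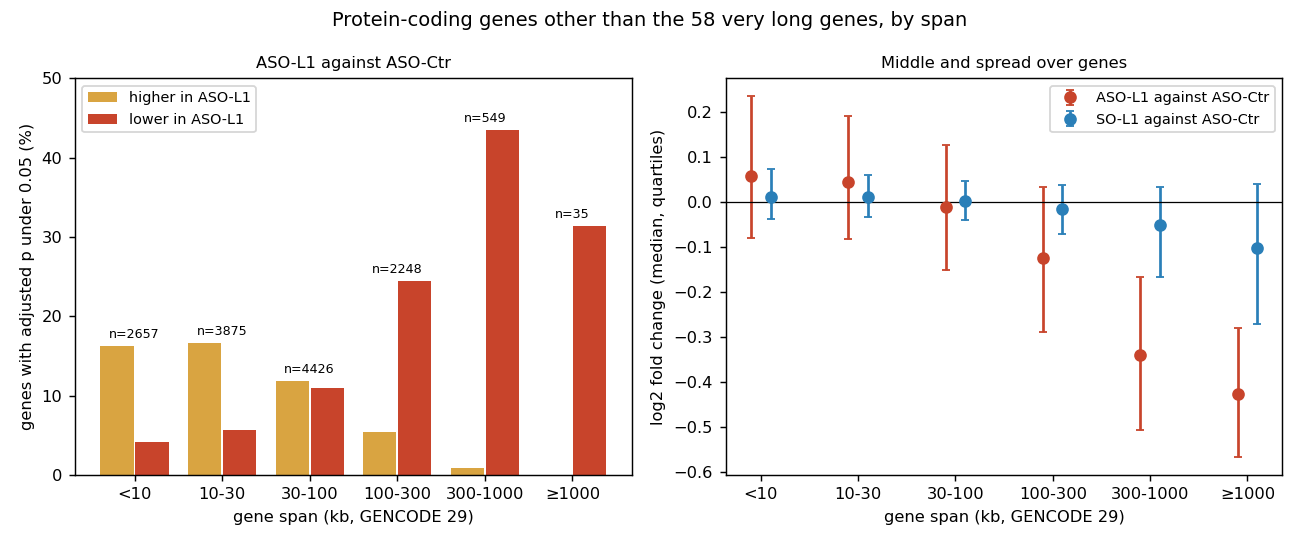
Left, share (%) of protein-coding genes, the 58 very long genes left out, that passed the test in ASO-L1 against ASO-Ctr in either direction, at an adjusted p under 0.05, by gene span in kb, with the number of genes above each pair of bars. Right, median log2 fold change with quartiles in the same bins for ASO-L1 and SO-L1 against ASO-Ctr. The share of lower genes goes from 4.14% under 10 kb to 43.5% from 300 to 1000 kb, and the ASO-L1 median from 0.06 to -0.34.

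Within the list, spans cover only 317.4 to 2241.8 kb, so its values cannot be set directly against those over all genes. Of 16 tested members under 500 kb 9 fell, of 25 from 500 to 1000 kb 22 fell, and of 13 at 1000 kb or more 6 fell. Their medians were -0.36, -0.41 and -0.42. Spearman's rho between span and change was -0.23 over the 54 members. The 3 members with an estimate above 0, ASAP1, ATXN1 and PRKCE, span 391.6, 462.4 and 536.6 kb. MACROD2 and DMD, the longest tested members at 2057.8 and 2241.8 kb, had estimates of -0.17 and -0.47.

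**Figure D5:**
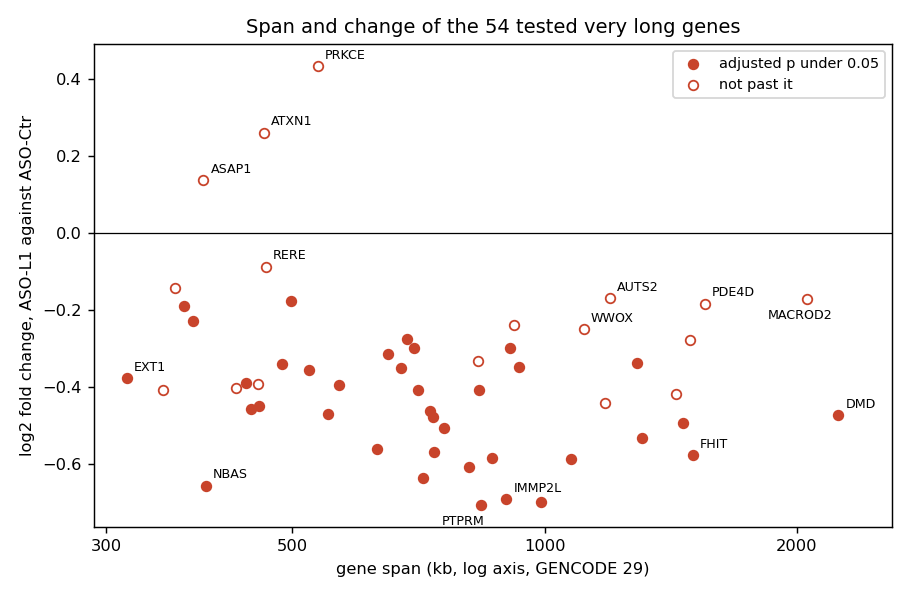
Gene span in kb (log axis) and log2 fold change in ASO-L1 against ASO-Ctr of the 54 tested very long genes, 1 point a gene; filled points passed the edgeR test at an adjusted p under 0.05. Points of all spans lie mostly between -0.7 and -0.2, and the 3 points above 0 belong to ASAP1, ATXN1 and PRKCE.

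A further list of 163 genes known to be very long, none of them a member, held 135 tested genes. Those with a matched span, 132 genes, were already counted in the span bins above, so the list is not separate from them. With members and this list left out, 43.0% of 446 genes from 300 to 1000 kb were lower (median -0.34). At 1000 kb or more 1 of 7 was lower (median -0.07). Of the 135 tested genes 59 fell (43.7%) and 0 rose in ASO-L1 against ASO-Ctr, with a median of -0.37, and with the block 96 fell and 2 rose. At an unadjusted p under 0.05 edgeR gave 79 lower and 1 higher, and DESeq2 and limma-voom gave 65 and 60 lower and 0 higher. The 5 with the smallest p were PCSK5, a proprotein convertase (-0.69 ± 0.05), ARID1B, a subunit of the BAF chromatin remodeller (-0.56 ± 0.05), the neurexin family member CNTNAP2 (-0.39 ± 0.04), the teneurin TENM3 (-0.47 ± 0.05) and the ubiquitin-conjugating enzyme UBE2E2 (-0.51 ± 0.06). In SO-L1 against ASO-Ctr edgeR and limma-voom called 0 of the 135, DESeq2 called 3 lower, and edgeR gave 10 lower and 2 higher at an unadjusted p under 0.05. With the block edgeR called 11 lower (8.15%) and 1 higher (0.741%), against 0.972% and 0.423% of all tested genes.

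Partners of the very long genes in their complexes and families, 102 genes with a median span of 49.9 kb, moved in both directions. Of 99 tested, 16 fell (16.2%) and 8 rose (8.08%) in ASO-L1 against ASO-Ctr, with a median of -0.03, where 10.5% of all tested genes fell and 11.5% rose. With the block 38 fell (38.4%) and 20 rose (20.2%), against 22.3% and 22.1% of all tested genes. The share of lower partners was above that of all genes in both fits. The share of higher partners was near that of all genes or a little below it. Of 32 partners of 100 kb or more, 6 fell and 0 rose (median -0.11), and of 65 shorter ones 10 fell and 7 rose (median -0.0019). In the exocyst, EXOC8 rose (0.29 ± 0.06, adjusted p = 0.00396), while EXOC1 and EXOC2 fell (-0.38 ± 0.07 and -0.28 ± 0.09); the last pair was named after its values were seen. CDH1, the cadherin of epithelial junctions, fell (-0.28 ± 0.03), and JUP, or plakoglobin, rose (0.27 ± 0.06). The retromer subunit VPS26A (0.20 ± 0.04), the polarity kinase PRKCI (0.15 ± 0.04) and the SAGA subunit CCDC101 (0.28 ± 0.08) rose. The glypican GPC2 (-0.44 ± 0.06), the dystrobrevin DTNB (-0.44 ± 0.07), HS2ST1 of heparan sulfate synthesis (-0.34 ± 0.06) and VPS13A (-0.36 ± 0.06) fell.

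Of 38 tested genes of transcript elongation, termination and topoisomerase function, 5 rose (13.2%) and 1 fell (2.63%), with a median of 0.01, where 11.5% of all tested genes rose and 10.5% fell. With the block 11 rose (28.9%) and 6 fell (15.8%), against 22.1% and 22.3%. Those higher were the termination factor PCF11 (0.26 ± 0.04), the NELF subunit NELFA (0.27 ± 0.04), the DSIF subunit SUPT5H (0.33 ± 0.06) and the P-TEFb cyclins CCNT1 (0.22 ± 0.05) and CCNT2 (0.16 ± 0.05). XRN2, an exonuclease that acts in termination, fell (-0.18 ± 0.04). The adjusted p-values of these 6 lay between 0.000245 and 0.0422. The lowest estimate of the list, picked out after its values were seen, was that of TOP2B, a type II topoisomerase (-0.26 ± 0.13, adjusted p = 0.188; with the block, 3.21e-09). TOP2B was lower in all 4 same-number pairs, and its level moved by -0.36 from numbers 1 and 2 to numbers 3 and 4. The topoisomerases TOP1 (-0.03 ± 0.04) and TOP2A (-0.05 ± 0.04) did not pass the test, with or without the block.

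Other signals moved with the same contrast. NEAT1, a nuclear RNA, rose (0.57 ± 0.11, adjusted p = 0.00274), and MALAT1, also nuclear, was at 0.70 ± 0.24 (adjusted p = 0.0521; with the block, 0.00176). Their summed level was 384 to 513 CPM in ASO-Ctr, 371 to 573 in SO-L1 and 511 to 831 in the antisense group. Of the 8 core pluripotency markers 4 fell, and all 8 with the block. The 4 were POU5F1, SOX2, LIN28A and SALL4, which fell by 0.18 to 0.23 on the log2 scale, and the sum of all 8 was 6910 to 7530 CPM in ASO-Ctr, 6720 to 7280 in SO-L1 and 6200 to 6770 in ASO-L1. Of 6 endoderm markers, 3 were tested, and CER1 (2.65 ± 0.31) and GATA6 (3.58 ± 0.60) rose. GATA6 reached 10 counts in only 4 libraries, all of them of the antisense group, where its mean was 1.14 CPM. With the control oligo its mean was 0.090 CPM, and with the sense oligo 0.085 CPM. The filter thus admitted GATA6 only because it was high with ASO-L1, so its rise is a description and its size is uncertain. The sum of the endoderm markers was 11.1 to 19.2 CPM in ASO-Ctr, 11.7 to 22.3 in SO-L1 and 64.6 to 118 in ASO-L1. Most of it was CER1 alone, with means of 13.8, 15.5 and 86.95 CPM. Of 8 trophectoderm and amnion markers, 3 were tested and GATA2 and KRT7 rose, with sums of 2.9 to 4.33 CPM in ASO-Ctr, 3.45 to 4.64 in SO-L1 and 4.83 to 7.37 in ASO-L1. Summed fibroblast markers had 255 to 382 CPM in the controls and 301 to 399 with ASO-L1, neural markers 366 to 452 and 419 to 471, and muscle markers 12.2 to 20.5 and 19.6 to 23.5. These ranges overlapped, and COL1A1 rose of 4 tested fibroblast markers, DCX fell of 6 neural ones, and ACTC1 rose of 4 muscle ones. With the block, 11 of all 28 tested markers rose and 13 fell, where 6 and 5 did so without it. By list, the block gave 2 higher and 2 lower fibroblast, 3 and 2 neural, 2 and 0 trophectoderm and amnion, 2 and 0 endoderm, and 2 and 1 muscle markers. No marker was at 0 in all libraries, and SOX17, FOXA2, CDX2, GATA3 and LUM were among those too low to test. The part of these signals in the fall of the very long genes was not tested.

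Of the 58 genes 4 were too low to test. ERBB4, a neuregulin receptor, had at most 7 counts in a library, LRP1B, of the LDL receptor family, at most 4, and DPYD, which degrades pyrimidines, at most 6. The transcription factor NPAS3 reached 10 counts in 1 library, with 15, and totalled 9 counts in the control libraries, 14 with SO-L1 and 25 with ASO-L1. Just inside the limit were ZBTB20, with 12 to 22 counts a library, PRKCE, with 8 to 33, and MACROD2, with 19 to 40. Long introns hold other genes, and the strand setting of the counting is not given in the sources used here, so reads of nested or antisense genes cannot be told apart from those of the host.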

How the data were processed

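RNA-seq counts from 12 libraries were analysed, 4 per oligo group. Trim Galore 0.4.0, TopHat2 2.0.13 and featureCounts of Subread 1.5.0 with genome build hg19 are named in the submitters' processing notes; their roles and settings, the annotation and the strand setting are not given in the sources used here. The deposited table holds whole-number counts per gene symbol, with duplicate reads removed if the tag rmDup in its name means that, and a row with no gene name (at most 3 counts in a library) was left out. Per the file names, the authors also deposited log2 normalised, batch-corrected values, and a result table with log2 fold changes and p-values of ASO-L1 against SO-L1; the batches and methods are not given in the sources used here. The members, the other lists and the rules were chosen with earlier results of these data known.

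Counts were fitted in R 4.3.3 with edgeR 4.0.16 (TMM scaling, robust quasi-likelihood F test, two-sided, all 12 libraries, 1 mean per group), on genes with 10 or more counts in at least 4 libraries, with Benjamini-Hochberg adjustment over all 17484. SE is the log2 fold change divided by the root of F. The script was tested on simulated counts. CPM use effective library sizes, and medians by library use log2 CPM with a prior count of 2. Alternatives were RLE and upper quartile scaling, DESeq2 1.42.0, limma-voom (limma 3.58.1), other filters and sample sets, a block, and leaving out each library. With group means removed, the deviations of same-numbered libraries from 2 groups correlated at r = 0.438 to 0.545 in all 12 pairs. Other numbers of the same set gave 0.442 to 0.528 and the other set -0.516 to -0.414. These values show the sets but no closer tie between libraries of the same number. The number was used as the block, and no label says that same-numbered libraries are matched. No replicate pair agreed within sampling noise (chi-square per degree of freedom 1.85 or more).

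Per-library values were given for the 8 lower and up to 8 higher called members with the smallest p in ASO-L1 against ASO-Ctr, up to 4 more per direction in the other comparisons, and DMD, FHIT, WWOX, IMMP2L, MACROD2 and AUTS2. From other lists, up to 5 called genes per direction were named. Gene spans had been planned from an annotation of hg19; GENCODE 29 spans (GRCh38) were matched by symbol instead, for 84.7% of tested genes, and give no coordinates. Promoters are from RefSeq (GRCh38.p14), read with Python 3.11.15. The values of 1 member are not reported here.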

Additional observations from a re-analysis of the deposited data

Results flagged for a closer look

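In 57 groups of 4 libraries, 3 for each of the 19 very long genes with library values, 2 held a library far from the other 3, where chance gives about 1 in 20. PRKG1 was at 17.6 CPM in SO-L1 library 3, with the nearest at 19.2. FHIT was at 1.89 CPM in ASO-L1 library 1, with the nearest at 1.48.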

How the results depend on the processing

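Scaling, test and filter left the medians of the members' log2 fold changes in place, and no call changed direction in any setting tried. With the library number as a block, ASO-L1 against ASO-Ctr gave 2 higher members, ASO-L1 against SO-L1 43 lower and 2 higher, and SO-L1 against ASO-Ctr 7 lower. Within numbers 1 and 2 alone these were 2 higher in the first comparison and 2 lower in the last; within numbers 3 and 4 alone, 1 higher in the first, 2 higher against SO-L1 and 3 lower in the last, whose median was then -0.0638. With no filter on low counts 0 members were higher against SO-L1, with 1 at an unadjusted p under 0.05 in edgeR; DESeq2 and limma-voom, with the filter, gave 1. That setting kept 30 of the 37 lower calls against ASO-Ctr, and 23 of the 28 calls against SO-L1. The cause was not tested. Leaving out each library gave 30 to 36 lower and 0 to 1 higher members in ASO-L1 against ASO-Ctr (ASAP1 without ASO-L1 4), 23 to 28 lower and 1 higher against SO-L1, and 0 in either direction in SO-L1 against ASO-Ctr. The medians were then -0.41 to -0.36, -0.32 to -0.29 and -0.0737 to -0.0489. For the 19 genes with library values, 1269 values kept direction and side of the threshold, 13 passed it newly, 7 lost it, and 22 estimates that were not called changed sign, all of them within numbers or with 1 library left out. Within numbers 3 and 4, MACROD2 was at 0.0958 in ASO-L1 against ASO-Ctr, MACROD2 at 0.1105 and FHIT at 0.0725 against SO-L1, and TCF12 at -0.0153 in SO-L1 against ASO-Ctr. Within numbers 1 and 2, EXT1 was at -0.0031, EXOC6B at -0.0451 and PRKG1 at 0.0888 in SO-L1 against ASO-Ctr. Leaving out each library put FHIT at -0.1622 to 0.088 against SO-L1. In SO-L1 against ASO-Ctr it put EXOC6B at -0.0108 to 0.0523, FTO at -0.0519 to 0.0207, TCF12 at -0.0144 to 0.0286, PRKG1 at -0.0561 to 0.0221, DMD at -0.1097 to 0.0224, MACROD2 at -0.1666 to 0.1358 and AUTS2 at -0.0708 to 0.0015. The low members MACROD2, PRKCE and ZBTB20 had SEs of 0.22 to 0.28, and the better covered PDE4D and GPC6 had 0.28 and 0.22. The part of depth in these SEs was not tested.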
